A study of Mus musculus with 8 samples.

Results

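A set of 9 long RNAs that are kept in the nucleus or that host small nucleolar RNAs (snoRNAs) was followed in differentiating mouse mesenchymal cells: *Malat1*, *Neat1*, *Gas5*, *Zfas1*, *Snhg1*, *Snhg3*, *Snhg5*, *Snhg8* and *Snhg12*. They were chosen by gene symbol as well-known long RNAs, with earlier results of these data known. All 9 were found among the 41325 symbols listed in each library. Of these, 2 are nuclear RNAs and 7 are snoRNA hosts. C3H10T1/2 is an established mouse line of mesenchymal stem cells (MSCs) that becomes adipocytes under adipogenic hormones. RNA-seq compared 4 lines of it, each before induction (day 0) and at day 5, as 8 libraries with 1 per condition. The lines were shControl, whose genotype is labelled WT, and the knockdown lines shKDM4D, shNFIB and shMLL1, which carry a pLKO.1 shRNA vector stably and were raised from puromycin-resistant clones. Which clone of each target was sequenced is not given in the sources used here, and the effect of a knockdown and a difference between clones cannot be told apart. KDM4D is a histone demethylase, NFIB a transcription factor and MLL1 a histone H3K4 methyltransferase. All 4 lines were confluent at day 0 and then received the same cocktail of insulin, dexamethasone and isobutylmethylxanthine until day 2, followed by insulin and then by plain serum medium.

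*Malat1* and *Neat1* lie side by side in the genome and stay in the nucleus. *Malat1* RNA gathers in nuclear speckles, which hold splicing factors, and *Neat1* RNA is the scaffold on which paraspeckles form. The host genes are transcribed as long precursors whose introns release snoRNAs, the guides for ribose methylation (box C/D class) and pseudouridylation (box H/ACA class) of ribosomal and other RNAs. The spliced host RNAs code for little or no protein. Several of them, *Gas5* being the classical case, begin with a terminal oligopyrimidine (TOP) tract like the mRNAs of ribosomal proteins, enter ribosomes, and are removed by nonsense-mediated decay.

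The values are read counts divided by the length of the merged annotated exons and by the mapped reads of the library (RPKM). Levels of different genes are compared on that scale only, since an RNA shorter than its merged exons gets a lower value. The number of mapped reads was 15800000 to 38200000 per library, and each value of the 9 RNAs came out within 0.053 of a whole number of reads. With 1 library per condition there is no estimate of the spread between cultures. P-values are therefore not given, and each interval is an exact 95% interval of the read counts that covers counting error alone. A gene was counted as higher or lower past a ratio of 2-fold, and the same share among 11513 expressed genes (RPKM over 1 somewhere in the 8 libraries) is given beside the counts. Of 8 mesenchymal markers, 7 were over 1 in every library and their sum was 2267 to 3735, while *Thy1* was low in shKDM4D and shNFIB cells. The sums of the macrophage, endothelial and epithelial markers did not pass 2.23, and *Epcam* was at 0 in every library. The adipocyte marker sum was 4.12 to 10.95 at day 0. At day 5 it was 831 in shControl cells and 39.1, 12.1 and 12.5 in shKDM4D, shNFIB and shMLL1 cells. *Nfib* was 9.92 in shControl and 2.31 in shNFIB cells at day 0, *Kmt2a* (MLL1) was 5.17 and 2.00 in shControl and shMLL1 cells, and *Kdm4d* had 2 and 13 reads in shControl and 1 and 4 in shKDM4D cells at day 0 and day 5, at day 5 an RPKM of 0.235 (0.125 to 0.402) against 0.0647 (0.0176 to 0.166). Reads of ribosomal-RNA-like genes moved with the day, from 7.95-10.5% of reads at day 0 to 3.07-3.62% at day 5. In bulk RNA, fewer cells that make an RNA and less of the RNA per cell cannot be told apart.

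The 7 host genes differ in how many snoRNAs they hold and in how the annotation (GRCm38, GENCODE M21) cuts them into exons. *Gas5* (chr1:161034422-161038539, plus strand) holds 9 snoRNA genes, *Snhg1* (chr19:8723475-8726443, plus) 8, *Snhg12* (chr4:132308623-132311024, plus) 4, and *Zfas1* (chr2:167062934-167065862, plus) 3. *Snhg3* (chr4:132348014-132353686, minus) and *Snhg5* (chr9:88521050-88522929, minus) hold 2 each, and *Snhg8* (chr3:123507552-123508404, minus) holds 1. Retained-intron transcripts are annotated for many of them (20 of 25 transcripts of *Gas5*, 14 of 18 of *Snhg1*), but not for *Snhg12* (0 of 10). The merged exons cover 91.3% of the span of *Gas5*, 92.0% of *Snhg5* and 100% of *Zfas1*, *Snhg1*, *Snhg8* and *Snhg12*. Only *Snhg3*, at 17.4%, is mostly intron. Thus, for 6 of the 7 hosts the RPKM counts reads from spliced RNA and from unspliced precursor together. *Malat1* (chr19:5795690-5802672, minus) is 6983 bases long, and *Neat1* (chr19:5824708-5845478, minus) is 20771 bases long with a shortest annotated transcript of 711 bases, so that its short and long forms are counted as a single value.

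**Figure D1:**
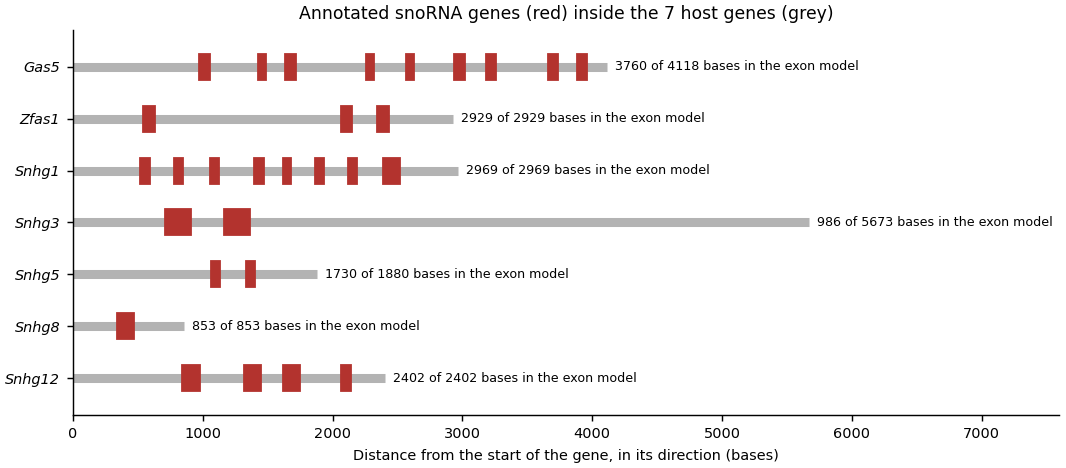
Map of the 7 host genes, drawn to scale in bases from the start of each gene in its direction of transcription. Grey bars are the gene spans and red boxes the 29 annotated snoRNA genes, and the label right of each bar gives the bases of the span inside the merged exons (986 of 5673 for *Snhg3*). *Gas5* and *Snhg1* carry the most snoRNAs, and *Snhg3* alone has most of its span outside the exons.

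The snoRNAs themselves are shown for a few hosts because they are the products for which these genes are known. They are all of box C/D class, with box C (TGATGA) and box D (CTGA) in capitals as a script found them on the RNA strand, read from the GENCODE M21 transcripts of GRCm38.
Snord47, inside *Gas5*, chr1:161038082-161038158: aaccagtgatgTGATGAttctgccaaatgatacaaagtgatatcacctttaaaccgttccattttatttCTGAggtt
Gm25878, inside *Zfas1*, chr2:167063473-167063565: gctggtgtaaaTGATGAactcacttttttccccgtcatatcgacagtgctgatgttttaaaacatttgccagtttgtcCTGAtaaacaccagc
Gm23201, inside *Zfas1*, chr2:167064998-167065086: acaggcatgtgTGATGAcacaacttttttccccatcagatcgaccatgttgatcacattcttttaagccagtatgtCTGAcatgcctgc
Snord12, inside *Zfas1*, chr2:167065276-167065365: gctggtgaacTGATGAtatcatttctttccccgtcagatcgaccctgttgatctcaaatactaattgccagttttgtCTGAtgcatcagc
Snord99, inside *Snhg12*, chr4:132310691-132310764: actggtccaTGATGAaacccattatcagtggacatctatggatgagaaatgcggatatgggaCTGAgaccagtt
Box C lies at bases 12 to 17 of Snord47, Gm25878 and Gm23201, at 11 to 16 of Snord12 and at 10 to 15 of Snord99. Of the 29 snoRNA genes inside the hosts, 27 were listed and 26 of these were at 0 in all 8 libraries. The exception was *Snora73a*, inside *Snhg3*, with an RPKM of 0.226 in shKDM4D cells at day 5 and 0 in the others. That is below what 3 reads of this RNA would give, an RPKM of 0.383 in the deepest library and 0.924 in the shallowest. Over the whole table, 54 of 1455 snoRNA genes were above 0 in any library. For an RNA as short as Snord47, 77 bases, 3 reads would be an RPKM of 1.02 in the deepest library and 2.46 in the shallowest. The annotated snoRNAs make up 8.32-20.9% of the bases of the hosts' merged exons, and reads over them can be counted to the host. The levels below are therefore those of the host genes as annotated, and the snoRNAs were not measured on their own.

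The start sites are shown because the pyrimidine tract at the start of a TOP RNA is part of its sequence. RefSeq start-site windows (GRCm38.p6) were matched for 8 of the 9 genes, all but *Neat1*, and *Gas5* has 2 starts. Each window holds 15 bases on each side of the start, on the RNA strand, with the longest run made only of C and T in capitals. The first 15 bases lie upstream of the annotated start and are not part of the RNA that begins there.
Malat1, chr19:5802658-5802687: CTCCgggctctgcgtcaggcattcaggcag
Gas5, the first start, chr1:161034586-161034615: agggggcgggCCCgcgagctcgacagcccg
Gas5, the second start, chr1:161035151-161035180: agccgccatctcagCCTTTCggagctgtgc
Zfas1, chr2:167062919-167062948: ttgactgcgCCCCgggcggccgcaggtctc
Snhg1, chr19:8723472-8723501: gttgttcttgtcggcctcaTTTTTCCTTgt
Snhg3, chr4:132353672-132353701: tagtcgaccacgcctgaCTTCCgggcgtta
Snhg5, chr9:88522883-88522912: gagctgcggtgaaccgggctcgTTCTTTTa
Snhg8, chr3:123508322-123508351: gcaccgttcagaagTCTCTTTggctgcgat
Snhg12, chr4:132308663-132308692: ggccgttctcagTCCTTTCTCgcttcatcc
*Snhg1* and *Snhg12* had runs of 9 bases, a length reached in 7.73% of the 32851 promoters in the table, and *Snhg5* and *Snhg8* had runs of 7, reached in 18.6%. The run at the second *Gas5* start was 6 bases long, reached in 29.2%. The runs of *Snhg12*, *Snhg8* and the second *Gas5* start spanned the annotated start itself. Those of *Malat1*, *Zfas1* and the first *Gas5* start lay wholly upstream of it. Those of *Snhg1*, *Snhg3* and *Snhg5* began at bases 5, 3 and 8 after it. The length of a run alone does not show a TOP tract. *Snhg3* had 5 bases (47.3%), *Zfas1* and *Malat1* 4 (69.1%), the median of all promoters, and the first *Gas5* start 3 (88.5%).

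*Malat1* was the most abundant of the 9 RNAs in every library, with 0.0516-0.0937% of all mapped reads, and its RPKM was above that of 95.4% to 97.4% of the expressed genes. By RPKM, *Gas5* came next in every library. By reads, *Neat1* was above *Gas5* in shControl cells at day 5 (4907 against 1916) and below it at day 0 (1904 against 2482). The RPKM order below *Gas5* moved with day and line. *Snhg8* had rank 3 at day 0 in all 4 lines and ranks 4 to 7 at day 5, *Snhg5* and *Snhg1* had ranks 3 to 6 throughout, and *Neat1* had ranks 6 to 9 at day 0 and 5 to 8 at day 5. *Snhg3*, with 37 to 152 reads, was the lowest of the 9 in 6 libraries. Counting intervals of neighbours overlapped often in the middle of the order, as for *Snhg1* and *Snhg5* in shKDM4D cells at day 0 (11.4 and 13.3), and never between *Malat1*, *Gas5* and the rest.

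**Figure D2:**
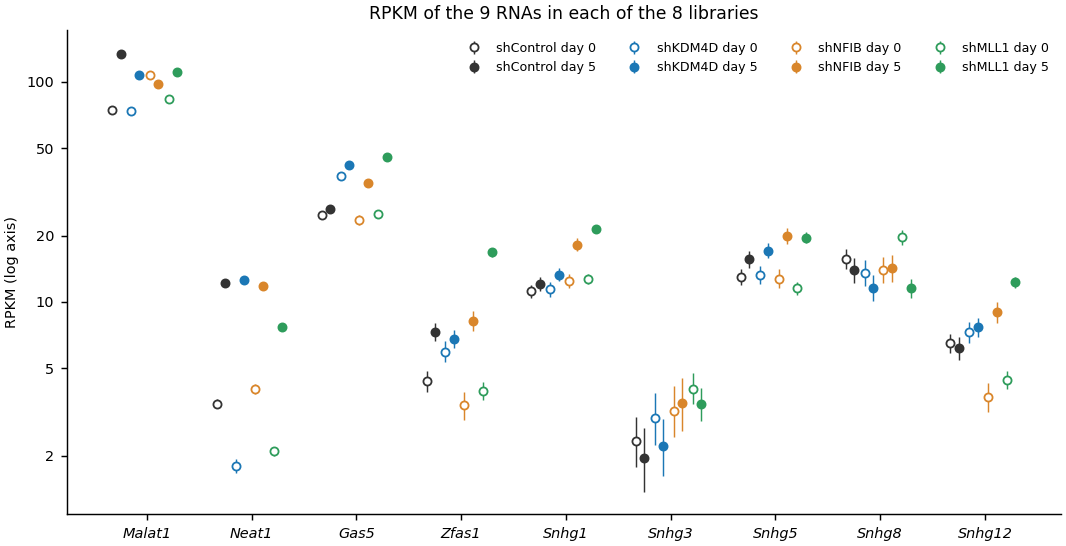
RPKM (log axis) of each RNA in the 8 libraries, open circles for day 0 and filled circles for day 5, colours for the 4 lines, bars for the exact 95% counting intervals. *Neat1* has its 4 day 5 values (7.65 to 12.5) well above its 4 day 0 values (1.79 to 4.02), and *Malat1* lies above all others.

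*Neat1* moved most. Its standard deviation of log2 RPKM over the 8 libraries was 1.16, larger than that of 98.1% of the 9282 genes with an RPKM over 1 in all libraries, where the median was 0.31. *Zfas1* (0.73, larger than 91.2% of genes) and *Snhg12* (0.55, 82.1%) also lay above most genes. *Gas5* (0.38), *Snhg3* (0.37), *Snhg1* (0.34), *Malat1* and *Snhg5* (0.30 each) and *Snhg8* (0.25) were near the median. For 3 of the 9 RNAs, *Neat1*, *Zfas1* and *Snhg5*, all 4 day 5 libraries were above all 4 day 0 libraries, a pattern held by 22.5% of the expressed genes. For none of the 9 were they all below, which held for 15.1% of genes.

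In the adipogenic course of each line, *Neat1* was the RNA that passed 2-fold in all 4. Its RPKM went from 3.44 at day 0 to 12.2 at day 5 in shControl cells, from 1.79 to 12.5 in shKDM4D, from 4.02 to 11.8 in shNFIB and from 2.09 to 7.65 in shMLL1 cells. Day 0 and day 5 did not overlap, and at day 5 only shMLL1 cells stood below the others. The fold was largest in shKDM4D cells, at 6.97 (log2 2.80, interval 2.69 to 2.92). It was 3.66 in shMLL1 (1.87, 1.79 to 1.95), 3.55 in shControl (1.83, 1.75 to 1.91) and 2.94 in shNFIB cells (1.56, 1.47 to 1.64). The direction held under each scaling tried, although the ratio to *Gapdh* brought the shNFIB change to 0.99, just inside 2-fold. Without the ribosomal-RNA-like and mitochondrial reads the changes were 1.73, 2.73, 1.49 and 1.75. The rise was present in the 3 knockdown lines, where the adipocyte marker sum at day 5 was 39.1 or below, and in shControl cells, where it was 831. In shKDM4D cells, with the largest *Neat1* fold, that sum went from 7.42 to 39.1. A link between the *Neat1* rise and adipogenesis was not tested.

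*Malat1* had an RPKM of 74.6 at day 0 and 134 at day 5 in shControl cells, 73.9 and 108 in shKDM4D, 107 and 97.3 in shNFIB, and 83.1 and 111 in shMLL1 cells. The ranges of the days overlapped through shNFIB cells, which had the highest *Malat1* level at day 0 and the lowest at day 5. No change passed 2-fold, although relative to *Gapdh* the shKDM4D change was 1.01, just past it. The log2 change was 0.85 in shControl (0.81 to 0.88), 0.55 in shKDM4D (0.51 to 0.58) and 0.42 in shMLL1 cells (0.39 to 0.44), and it was -0.14 (-0.17 to -0.10) in shNFIB cells. The difference between the shNFIB and the shControl change was -0.98, with a counting interval of -1.03 to -0.93, and was not tested against replicates. *Malat1* therefore stood 21.7 times above *Neat1* per base of the merged exons in shControl cells at day 0 and 10.98 times at day 5. The ratios were 41.2 and 8.62 in shKDM4D, 26.6 and 8.23 in shNFIB and 39.7 and 14.5 in shMLL1 cells.

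*Zfas1*, which runs antisense from the start of the RNA-helicase-like gene *Znfx1*, had an RPKM of 4.34 and 7.31 at day 0 and day 5 in shControl, 5.94 and 6.79 in shKDM4D, 3.38 and 8.19 in shNFIB and 3.94 and 16.8 in shMLL1 cells. The highest day 0 value was below the lowest day 5 value, and shMLL1 cells at day 5 stood apart from the rest. *Zfas1* rose 2.42-fold in shNFIB (log2 1.28, 1.02 to 1.54) and 4.26-fold in shMLL1 cells (2.09, 1.94 to 2.24). Relative to *Gapdh* the shNFIB change was 0.71, below 2-fold. The change was 0.75 (0.54 to 0.96) in shControl and 0.19 (-0.02 to 0.40) in shKDM4D cells.

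*Snhg12*, host of *Snora16a*, *Snora44*, *Snora61* and *Snord99*, had an RPKM of 6.47 and 6.14 in shControl, 7.27 and 7.68 in shKDM4D, 3.68 and 8.96 in shNFIB and 4.41 and 12.2 in shMLL1 cells. The shControl and shKDM4D values were nearly level, while shNFIB and shMLL1 cells started lower and ended higher. *Snhg12* rose 2.43-fold in shNFIB (1.28, 1.01 to 1.56) and 2.77-fold in shMLL1 cells (1.47, 1.31 to 1.64), against log2 changes of -0.08 (-0.30 to 0.15) and 0.08 (-0.13 to 0.29) in shControl and shKDM4D cells. Relative to *Gapdh* the shNFIB change was 0.72. The change exceeded that of shControl cells by 1.36 (1.01 to 1.71) in shNFIB and by 1.55 (1.27 to 1.82) in shMLL1 cells.

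The hosts *Gas5*, *Snhg1* and *Snhg5* changed by less than 2-fold in every line, with the smallest changes in shControl cells and the largest in shMLL1 cells, whereas relative to *Gapdh* the smallest of all 3 were in shNFIB cells and the largest of *Snhg1* (0.69) and *Snhg5* (0.83) in shKDM4D cells. *Gas5*, which can bind the glucocorticoid receptor and accumulates in arrested cells, had an RPKM of 24.8 and 26.4 in shControl, 37.4 and 42.0 in shKDM4D, 23.6 and 34.8 in shNFIB and 25.1 and 45.4 in shMLL1 cells. Its log2 change was 0.09 (0.00 to 0.18), 0.17 (0.09 to 0.24), 0.56 (0.47 to 0.66) and 0.85 (0.79 to 0.91) in that order. The shControl value was -0.01 without the ribosomal-RNA-like and mitochondrial reads, and the shNFIB value was -0.00 relative to *Gapdh*. *Snhg1*, host of *Snord22*, had an RPKM of 11.2 and 12.0, 11.4 and 13.3, 12.4 and 18.2, and 12.7 and 21.3 in the same lines. Its 4 day 0 values lay within 1.14-fold of each other, and the shNFIB and shMLL1 values at day 5 stood above all others. The log2 change of *Snhg1* was 0.11 (-0.04 to 0.25), 0.22 (0.07 to 0.37), 0.55 (0.40 to 0.70, but -0.02 relative to *Gapdh*) and 0.75 (0.65 to 0.84). *Snhg5*, host of *Snord50a* and *Snord50b*, had an RPKM of 13.0 and 15.6, 13.3 and 17.1, 12.8 and 19.96, and 11.5 and 19.6. It was higher at day 5 in each line, without overlap of the days, by 0.27 (0.10 to 0.44), 0.36 (0.19 to 0.54), 0.65 (0.46 to 0.83) and 0.77 (0.64 to 0.90), and the sign held under each scaling tried.

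*Snhg8* and *Snhg3* did not share this direction. *Snhg8*, host of *Snora24*, had an RPKM of 15.7 and 13.9 in shControl, 13.6 and 11.6 in shKDM4D, 14.0 and 14.2 in shNFIB and 19.6 and 11.5 in shMLL1 cells. Both its highest and its lowest value were from shMLL1 cells, where the log2 change was -0.77 (-0.96 to -0.58). In the other lines the interval included 0. *Snhg3*, host of *Snora73a* and *Snora73b*, had an RPKM of 2.32 and 1.94, 2.96 and 2.21, 3.21 and 3.46, and 4.04 and 3.43, and at 37 to 152 reads no change with time was detectable, since all 4 intervals included 0.

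**Figure D3:**
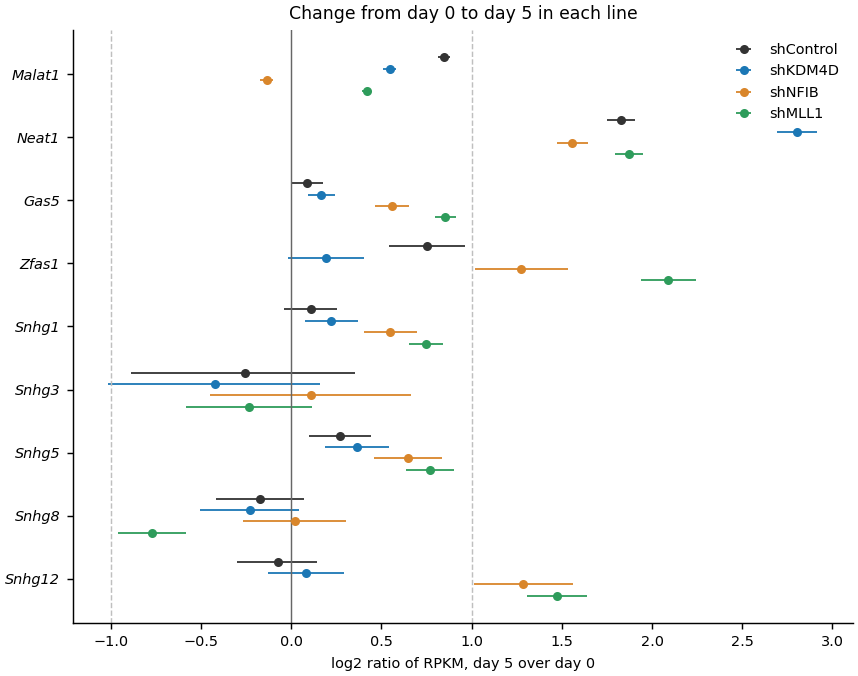
log2 ratio of RPKM, day 5 over day 0, for each RNA (rows) and line (colours), with exact 95% counting intervals. Dashed lines mark 2-fold. *Neat1* passes 2-fold in all 4 lines, and *Zfas1* and *Snhg12* only in shNFIB and shMLL1 cells.

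Counted over the 9 RNAs, 1 rose and 0 fell past 2-fold in shControl cells, against 13.0% of expressed genes higher and 8.56% lower. In shKDM4D cells, 1 rose and 0 fell (background 12.8% and 8.44%). In shNFIB cells, 3 rose and 0 fell (12.6% and 4.96%), and in shMLL1 cells 3 rose and 0 fell (20.4% and 6.89%). Among non-coding genes alone, the share past 2-fold in either direction was larger in each line, with values in the closing section. The median log2 change over the 9 was 0.11, 0.19, 0.56 and 0.77 in shControl, shKDM4D, shNFIB and shMLL1 cells, beside 0.03, 0.03, 0.09 and 0.17 over all expressed genes. The summed RPKM of the 7 hosts went from 77.7 to 83.3, from 91.8 to 101, from 73.0 to 108 and from 81.3 to 130. Relative to *Gapdh*, the median of all genes itself moved to 0.06, 0.50, -0.48 and 0.05, and values on that scale have to be read against this shift.

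Against shControl cells at day 0, no RNA of the 9 passed 2-fold in any knockdown line. Since all 3 lines were set against the same shControl library, their ratios are not independent. The background at day 0 was 1.98% higher and 4.26% lower in shKDM4D, 2.95% and 6.05% in shNFIB and 1.67% and 7.43% in shMLL1 cells. *Neat1* was the nearest to the limit, with a log2 ratio in shKDM4D cells of -0.94 (-1.07 to -0.82) and in shMLL1 cells of -0.72 (-0.81 to -0.62), but 0.22 (0.13 to 0.32) in shNFIB cells. Relative to *Gapdh* the shKDM4D ratio was -1.34. *Snhg12* had a ratio of -0.81 (-1.08 to -0.55) in shNFIB and -0.55 (-0.75 to -0.35) in shMLL1 cells. *Gas5* in shKDM4D cells was at 0.60 (0.52 to 0.67), *Malat1* in shNFIB cells at 0.52 (0.48 to 0.55) and *Snhg3* in shMLL1 cells at 0.80 (0.36 to 1.25). In shNFIB cells *Malat1* was at 1.16 relative to *Gapdh*, and *Snhg3*, at 0.47 by RPKM, was at 1.10, both past 2-fold. *Zfas1* was at 0.45 (0.23 to 0.67) in shKDM4D cells and at -0.36 (-0.63 to -0.10) in shNFIB cells, the latter changing sign to 0.28 relative to *Gapdh*. The median over the 9 was 0.04, -0.02 and 0.02 in shKDM4D, shNFIB and shMLL1 cells, beside -0.00, 0.03 and -0.07 over all expressed genes. Relative to *Gapdh*, the median of all genes moved to -0.40, 0.67 and -0.28 at day 0 and to 0.05, 0.14 and -0.29 at day 5.

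At day 5, again against a shared shControl library, 0 RNAs were higher and 0 lower past 2-fold in shKDM4D (background 1.88% and 4.57%) and in shNFIB cells (5.54% and 5.67%), and 1 was higher and 0 lower in shMLL1 cells (5.25% and 4.02%). The RNA past the limit was *Zfas1*, 2.30-fold higher in shMLL1 cells (log2 1.20, 1.04 to 1.36, and 0.84 relative to *Gapdh*). *Snhg12* stood just inside it, at 1.99-fold (1.00, 0.81 to 1.19), with 0.55 (0.31 to 0.78) in shNFIB and 0.32 (0.10 to 0.55) in shKDM4D cells. *Gas5* was higher than in shControl cells in all 3 lines, by 0.67 (0.59 to 0.75), 0.40 (0.31 to 0.49) and 0.78 (0.71 to 0.86) in shKDM4D, shNFIB and shMLL1 cells, under each scaling tried. *Malat1* was lower in all 3, by ratios of -0.32 (-0.35 to -0.28), -0.46 (-0.50 to -0.43) and -0.27 (-0.30 to -0.25), also under each scaling. *Snhg1* was at 0.59 (0.45 to 0.74) in shNFIB and 0.83 (0.70 to 0.95) in shMLL1 cells, and *Snhg3* at 0.83 (0.20 to 1.48) and 0.82 (0.28 to 1.39). *Snhg5* in shMLL1 cells was at 0.33 (0.18 to 0.48) but at -0.03 relative to *Gapdh*. *Neat1* in shKDM4D (0.03, -0.02 to 0.09) and shNFIB cells (-0.05, -0.11 to 0.01) differed from shControl cells by no more than counting error in RPKM. The shNFIB ratio was -0.13 with median-of-ratios scaling and -0.12 with quantile normalization, both outside that interval. In shMLL1 cells *Neat1* was at -0.68 (-0.73 to -0.62), or -1.03 relative to *Gapdh*, past 2-fold. The median over the 9 was 0.13, 0.35 and 0.78, beside 0.01, 0.09 and 0.07 over all expressed genes.

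**Figure D4:**
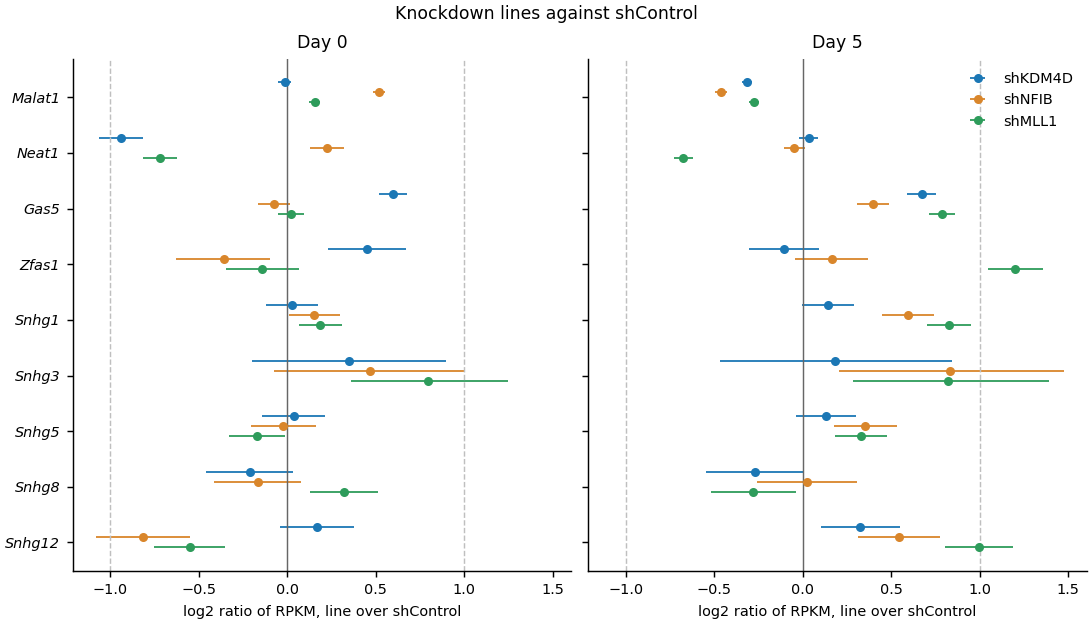
log2 ratio of RPKM of each knockdown line over shControl cells at day 0 (left) and day 5 (right), with exact 95% counting intervals and dashed lines at 2-fold. At day 5 the *Malat1* points lie left of 0 and the *Gas5* points right of 0 in all 3 lines, and *Zfas1* in shMLL1 cells lies past 2-fold.

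The coding gene next to a host did not move alike for each host. *Znfx1*, which shares 82 exon bases with *Zfas1* on the opposite strand, had an RPKM of 6.75 and 14.8 in shControl, 6.84 and 11.5 in shKDM4D, 6.42 and 16.5 in shNFIB and 4.63 and 34.9 in shMLL1 cells. Both genes had their highest value in shMLL1 cells at day 5, and the log2 change of *Znfx1* was 1.14, 0.75, 1.37 and 2.91. At the mean density of *Znfx1*, the shared bases would hold 109 reads in that library, against 1875 reads counted for *Zfas1*, and 3.22-5.82% of the *Zfas1* reads over the 8 libraries. The strand setting of the read counting is not given in the sources used here, so reads of the overlap cannot be assigned to a strand. *Slc3a2*, the amino acid transporter subunit next to *Snhg1*, was 55.6 and 39.4 in shControl, 54.9 and 61.4 in shKDM4D, 28.1 and 53.9 in shNFIB and 25.9 and 56.5 in shMLL1 cells. It was lower at day 5 in shControl cells, where *Snhg1* was nearly level. In shNFIB and shMLL1 cells *Slc3a2* was 1.91-fold and 2.18-fold higher at day 5, and *Snhg1* was higher too. Relative to *Gapdh*, the shNFIB log2 changes were 0.37 for *Slc3a2* and -0.02 for *Snhg1*, and the shMLL1 changes were 1.01 and 0.63. *Rcc1*, the Ran exchange factor whose exons share 135 bases with *Snhg3* on the same strand, fell in all 4 lines by 1.78, 1.30, 1.02 and 1.46 on the log2 scale. The shared bases would hold 12.3-39.0% of the *Snhg3* reads at the mean density of *Rcc1*, and reads there can belong to either gene. *Trnau1ap*, next to *Snhg12*, changed by -0.29, -0.09, 0.28 and -0.28, and thus was 0.825-fold in shMLL1 cells, where *Snhg12* rose 2.77-fold. *Prss12*, a serine protease gene next to *Snhg8*, had 20 and 45 reads in shControl, 7 and 98 in shKDM4D, 4 and 11 in shNFIB and 5 and 437 in shMLL1 cells. It was higher at day 5 in each line, but in shNFIB cells the interval of the change (-0.06 to 3.80) included 0. *Syncrip*, next to *Snhg5*, was lower at day 5 in all 4 lines, past 2-fold in shMLL1 cells (-1.11, -1.15 to -1.06). *Frmd8*, near *Neat1* and *Malat1*, and *Zbtb37*, near *Gas5*, passed 2-fold over time in no line.

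**Figure D5:**
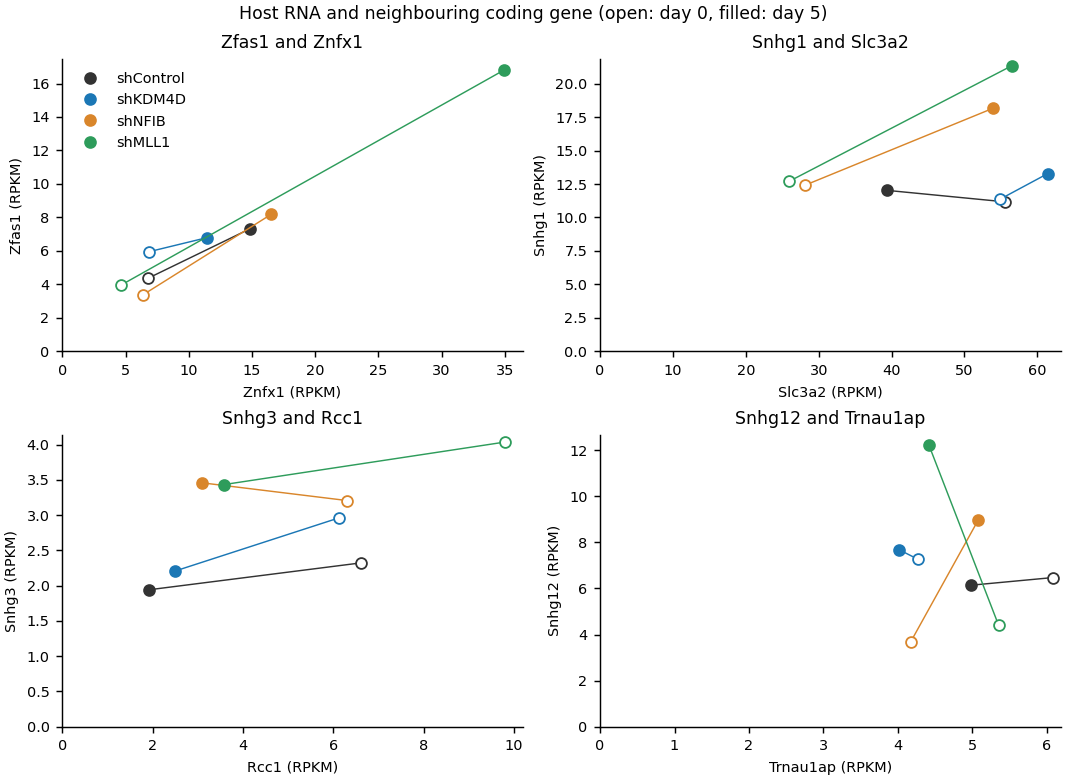
RPKM of 4 host RNAs (vertical axis) against the neighbouring coding gene (horizontal axis) in the 8 libraries, open circles for day 0 and filled circles for day 5, joined within each line. *Zfas1* and *Znfx1* are both highest in shMLL1 cells at day 5 (16.8 and 34.9), whereas *Snhg12* ranges from 3.68 to 12.2 while *Trnau1ap* stays between 4.01 and 6.08.

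The other RNAs and proteins of these pathways were counted in the same way, over lists chosen for their function. For changes with time, their counts stand beside background shares of 13.0%, 12.8%, 12.6% and 20.4% of expressed genes higher and 8.56%, 8.44%, 4.96% and 6.89% lower in shControl, shKDM4D, shNFIB and shMLL1 cells. Of 16 further non-coding RNAs, most of them snoRNA hosts, 14 were listed and 10 expressed. The 16 include *Tug1* and *Mir17hg*, which are not snoRNA hosts. *Tug1* is among the 10 and enters their counts and medians. From day 0 to day 5, 2 of the 10 rose and 0 fell in shControl, 1 and 2 in shKDM4D, 2 and 0 in shNFIB and 4 and 1 in shMLL1 cells. In every line *Snhg9* is among these, at a low level. Its RPKM went from 0.615 to 1.41, from 0.839 to 0.253, from 0 to 0.690 and from 0.572 to 1.43. In shNFIB cells it is thus counted as higher from a value of 0. With 10 genes, 1 or 2 past the limit is near the background, and the median change was 0.12, 0.19, 0.53 and 0.73. *Snhg18* rose in all 4 lines, from 8.01 to 24.5, 10.9 to 23.6, 6.598 to 22.2 and 5.04 to 17.6. In shMLL1 cells the others past the limit were *Snhg9*, *Snhg6* and *Epb41l4aos*. *Snhg6* went from 5.96 to 12.5 and *Epb41l4aos* from 21.5 to 45.4 there, against 6.16 to 6.05 and 22.4 to 24.2 in shControl cells. The lowest was *Snhg4* in 3 of the lines, with log2 changes of -0.94 in shControl, -0.37 in shNFIB and -1.09 in shMLL1 cells. Against shControl cells at day 5, 1 of the 10 was higher and 1 lower in shKDM4D cells (background 1.88% and 4.57%). In shNFIB cells 2 were higher and 1 lower (5.54% and 5.67%), and in shMLL1 cells 2 and 0 (5.25% and 4.02%). The median ratios were -0.04, 0.90 and 0.53, beside 0.01, 0.09 and 0.07 over all expressed genes.

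The mRNAs of ribosomal proteins and translation factors, a class known for starting with a TOP tract, were nearly all within 2-fold. They were listed by gene name, and their start sequences were not examined. Of 87 such genes, 84 were expressed, and 0 rose in shControl and shNFIB cells and 1 each in shKDM4D and shMLL1 cells, with none falling (background 12.6-20.4% higher and 4.96-8.56% lower). The gene past the limit was *Rps27rt*, a retrotransposed copy of *Rps27* whose reads can be shared with it, which was listed at 0 in shKDM4D cells at day 0 and went from 1.26 to 3.72 in shMLL1 cells. The median change of the list was -0.13, -0.22, 0.18 and 0.03. In all 4 lines this lay below the medians of the 7 hosts, 0.09, 0.17, 0.56 and 0.77, a comparison for which no test is available.

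Some of the genes for the proteins of snoRNA particles and their assembly fell past 2-fold in 3 of the lines. Of 17 genes, 6 fell and 0 rose in shControl cells (background 8.56% lower). In shKDM4D, shNFIB and shMLL1 cells 4, 0 and 5 fell and 0 rose (8.44%, 4.96% and 6.89% lower). The medians of the 4 lines were -0.76, -0.44, -0.28 and -0.57. *Gar1* had the lowest change in shControl (-1.41) and *Nhp2* in shKDM4D cells (-1.35), both parts of the H/ACA particle. *Dkc1*, its pseudouridine synthase, was at -1.44 in shMLL1 and -0.96 in shNFIB cells. At day 5, 2 of the 17 were higher in shNFIB than in shControl cells, *Nop56* of the C/D particle most, at 1.10 (background 5.54% higher). In the other comparisons with shControl cells none passed 2-fold. Of 15 nonsense-mediated decay factors, 1 fell in shControl and 1 in shKDM4D cells (*Smg5*, -1.03 and -1.21), and none passed in shNFIB cells, which is near the background of 8.56%, 8.44% and 4.96% lower. The endonuclease gene *Smg6* rose (1.08) and *Smg9* fell (-1.03) in shMLL1 cells, against 20.4% of expressed genes higher and 6.89% lower. None of them passed 2-fold between a knockdown line and shControl cells at either day.

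The genes for protein partners of the nuclear RNAs were nearly all within 2-fold. None of the 13 paraspeckle protein genes passed 2-fold in any of the 10 comparisons, where the background in 1 direction ran from 1.67% to 20.4%. Their median change from day 0 to day 5 was -0.25, -0.13, -0.31 and -0.40 where *Neat1* rose 2.94-fold to 6.97-fold. *Pspc1* was the highest of them in each line (0.25, 0.52, 0.11 and 0.47), and *Tardbp* in shMLL1 cells the lowest (-0.97). Of 13 nuclear speckle protein genes, only the splicing factor *Srsf1* passed over time, in shMLL1 cells (-1.10, background 6.89% lower), and *Srsf5* was the highest in each line (0.56, 0.73, 0.64 and 0.37).

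The genes whose pattern over the 8 libraries was nearest to each RNA were taken among 5091 genes with an RPKM of at least 5 throughout, by the root mean square difference of centred log2 RPKM. Nearest to *Malat1* were *Rap1a* (0.09), *Stx17* (0.11) and *Zfand5* (0.13). *Rap1a* was 20.2 and 30.2 in shControl cells and 25.2 and 24.9 in shNFIB cells. Nearest to *Neat1* were *Aplp2* (0.24), *Fgfrl1* (0.27) and *Marcks* (0.32), at larger distances. *Aplp2* went from 47.5 to 183 in shControl, from 34.1 to 168 in shKDM4D, from 44.4 to 133 in shNFIB and from 27.1 to 93.1 in shMLL1 cells. Nearest to the mean of the 7 hosts were *Rnf181*, *Eif3m* and *Dars*, each at 0.11, and *Eif3m* went from 31.0 to 35.1 in shControl and from 33.5 to 44.6 in shMLL1 cells. Among the 9 RNAs themselves, *Snhg1* and *Snhg5* were the closest pair (0.19), *Zfas1* and *Snhg12* were at 0.30, and *Neat1* was at 0.87 or more from each of the others.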

How the data were processed

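RNA-seq libraries of 4 C3H10T1/2 lines at day 0 and day 5 were used, 1 per condition. According to their methods, the authors made stranded SMARTer libraries, used CLC Genomics Workbench to align reads to GRCm38, and deposited 1 RPKM value per gene symbol and library. The methods also name quantile normalization, which is not visible in the deposited values, since 96.2-96.6% of the values worth 1 to 1000 reads lay within 0.02 of a whole read. Reads were recovered as RPKM times exon length (GENCODE M21) times mapped reads (15800000 to 38200000 per library). The recovery and the intervals were tested on simulated data. Ratios of RPKM were taken without a pseudocount, with exact 95% Clopper-Pearson intervals conditional on the summed reads, and levels with exact Poisson intervals. Both cover counting error only, and p-values were not computed.

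All 9 RNAs were named. From each list up to 3 of the highest and lowest ratios were named, with the neighbours of each host and the 3 nearest genes for each pattern. Members past 2-fold outside these, such as *Snhg6*, were named after their values were seen. A neighbouring gene of the list is not reported here. The RNAs and the lists were chosen with earlier results of these data known. Alternatives were median-of-ratios scaling, quantile normalization, the ratio to *Gapdh*, leaving out ribosomal-RNA-like and mitochondrial reads, pseudocounts of 0.1 and 1, a 1.5-fold limit, and other filters for the background. Python 3.11.15, numpy 2.4.6, pandas 2.3.3, scipy 1.17.1 and matplotlib 3.10.9 were used.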

Additional observations from a re-analysis of the deposited data

Results flagged for a closer look

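*Malat1* moved in opposite directions in 2 of the lines. Its log2 change from day 0 to day 5 was -0.14 in shNFIB cells and 0.85 in shControl cells, and both counting intervals excluded 0. With 1 library per condition the difference was not tested against the spread between cultures.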

How the results depend on the processing

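No paired analysis was possible because no condition has a second library. A fit of day with the 4 lines as blocks was not made, since the lines carry different knockdowns and are not replicates of a condition. Over 90 ratios of the 9 RNAs (10 comparisons), 58 had a counting interval without 0, and 7 of these changed sign under some scaling, 6 of them relative to *Gapdh*. No change past 2-fold reversed. The ratio to *Gapdh* moved 56 of the 90 values out of their interval, quantile normalization 16, a pseudocount of 1 9, the omission of ribosomal-RNA-like and mitochondrial reads 9, median-of-ratios scaling 7 and a pseudocount of 0.1 0.

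A limit of 1.5-fold in place of 2-fold raised the number of RNAs past it from 1 to 3 over time in shControl and from 3 to 7 in shMLL1 cells, where 40.2% and 47.8% of expressed genes passed it. Against shControl cells it gave 2, 1 and 2 at day 0 in shKDM4D, shNFIB and shMLL1 cells where there were 0, and 1, 2 and 6 at day 5 in place of 0, 0 and 1 (expressed genes 14.1%, 20.9% and 20.6%, then 14.6%, 26.4% and 21.2%). Relative to *Gapdh* there were 2 in place of 1 over time in shKDM4D, 0 in place of 3 in shNFIB, and at day 0 1 and 2 in place of 0 in shKDM4D and shNFIB cells (expressed genes 27.8%, 24.8%, 9.41% and 22.7%). At day 5 in shMLL1 cells the count stayed at 1, but *Neat1* (-1.03) passed in place of *Zfas1* (0.84), beside 11.3% of expressed genes. The background share past 2-fold in either direction was 21.6%, 21.2%, 17.6% and 27.3% over time (shControl, shKDM4D, shNFIB, shMLL1), and 6.24%, 8.999% and 9.09% at day 0 and 6.44%, 11.2% and 9.28% at day 5 for the knockdown lines. With no RPKM filter it was 39.6%, 38.7%, 36.0% and 46.6%, then 25.3%, 28.5% and 29.3%, and 27.2%, 32.1% and 31.5%. Over non-coding genes only it was 37.3%, 37.0%, 39.9% and 48.6%, then 22.4%, 26.8% and 22.4%, and 19.1%, 27.3% and 23.5%. The other settings left the number in each count and each share within 1.5-fold of the reported value. The causes were not tested. Depth limits *Snhg3* most, at 37 to 152 reads.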
